A study of Mus musculus with 8 samples.

Results

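The samples labelled Lmyc3 in this mouse small cell lung cancer (SCLC) series come from 2 cultures, called old and new, which share a line name in the descriptions, while the sample titles number them separately. Each was profiled by RNA-seq once with an empty vector and once with forced expression of Nfib, so 4 of the 8 libraries of the series are compared here, 2 of Lmyc3 old against 2 of Lmyc3 new, chosen by the culture name in the sample descriptions. The other 4 libraries are the same 2 arms of the cultures Lmyc1 old and Lmyc5 new. All cultures were derived from primary lung tumors and carry an invCAG-Mycl-Luc allele and a loss of Rb1 on an FVB/n and 129/Ola background, per the labels, so no culture lacks the transgene. The sources used here do not say what old and new mean (passage, freeze-down, tumor or animal), and the animals' age and the induction of the alleles are not given either. Each culture stands for itself: the p-values below measure how far the difference between the cultures varied between the 2 arms, not the spread between independent cultures of a kind.

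SCLC is a neuroendocrine lung cancer. Its cells usually express genes for dense-core granules, hormones, synaptic proteins and ion channels, while a smaller share of tumors or lines lose that program and take on epithelial, tuft-like or mesenchymal features. Epithelial cells are held together by E-cadherin, EpCAM, claudins and desmosomes on a keratin skeleton. The zinc finger factors Zeb1 and Zeb2 are known to repress those genes, and cells that move away from the epithelial state often gain matrix, N-cadherin or neuronal adhesion genes.

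Counts summed to between 21815264 and 26625148 per Lmyc3 library, and a gene with no counts may have been present at up to 3 counts. That is 0.113 to 0.138 CPM (counts-per-million) of the summed counts, before scaling. CPM values of genes and lists were scaled with TMM factors over the 8 libraries. Throughout, a pair of CPM values gives the empty vector library first and the Nfib library second, and a log2 difference is old minus new from the edgeR fit with the arm as covariate. Nfib itself checked the arms: it was at 400.5 and 4664 CPM (old) against 163 and 2922 CPM (new). The libraries of both cultures had Y-linked RNA and almost no Xist. Ddx3y was at 93.02 and 167 CPM (old) against 68.3 and 71.9 CPM (new), against at most 0.0390 CPM in the other 4 libraries, and Xist at 0.994 and 0.871 CPM (old) against 1.07 and 1.76 CPM (new), against 1387 to 3914 CPM in Lmyc1 and Lmyc5. Ddx3y was called higher in the old culture (0.84 ± 0.21 (SE), adjusted p = 0.0324), and the call was lost with the arm left out (adjusted p = 0.0644), without the old Nfib library (0.46, adjusted p = 0.117) and without the new Nfib library (0.44, adjusted p = 0.156). Reads were counted over whole genes, so a partial deletion such as that of Rb1 cannot be checked.

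Markers of other cell types were mostly low. Of the 7 fibroblast markers listed, Col1a1, Col1a2, Col3a1, Dcn and Lum stayed at or below 0.22 CPM in the Lmyc3 libraries, and the list summed to 15.1 and 39.3 CPM in the old culture and to 5.44 and 3.87 CPM in the new one. Pdgfra and Thy1 made up most of it, with Thy1 at 4.73 and 36.4 CPM (old) against 4.92 and 3.57 CPM (new). The 6 leukocyte markers in the table summed to 29.5 and 19.7 CPM against 58.0 and 45.8 CPM, most of it Coro1a, and 2 or 3 of them were at 0 counts in each library. Among 6 endothelial markers only Vwf was abundant, at 49.99 and 38.6 CPM (old) against 648 and 567 CPM (new). The 7 alveolar markers summed to 83.6 and 83.8 CPM (old) against 101 and 92.3 CPM (new). Of 4 alveolar markers tested, 1 was higher in each culture. The 5 airway markers summed to 6.82 and 9.44 CPM (old) against 13.4 and 16.3 CPM (new). The part of other cell types in the results was not tested.

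The 2 cultures differed at 6767 of 13704 genes tested (adjusted p under 0.05), which is 49.4% of them. Of these, 3302 genes (24.1%) were higher in the old culture and 3465 (25.3%) in the new one, and 4015 genes (29.3%) differed at least 2-fold. A difference of at least 16-fold was called for 963 genes, 543 higher in the old culture and 420 in the new one. The median log2 difference over all genes tested was 0.01 and the median absolute difference 0.60. Every called gene had the same sign in both arms, but the test nearly requires this, since its error is the disagreement between the arms. Of all genes tested, 86.4% had the same sign. Across genes, which are not independent replicates, the difference in the empty vector arm and that in the Nfib arm had a Pearson r of 0.922. As a description, 103 genes with a mean of at least 5 CPM in the old culture had at most 3 counts in the new one, and 19 genes showed the reverse.

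**Figure D1:**
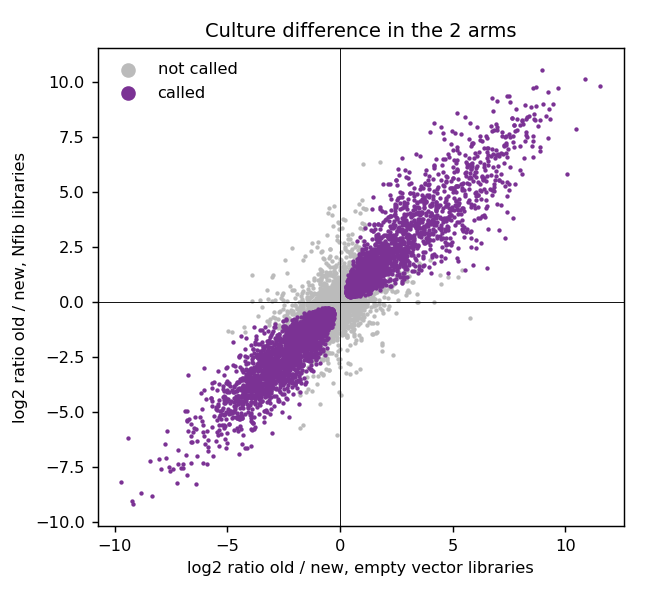
Each point is 1 of the 13704 genes tested. The log2 ratio of old to new is shown for the empty vector libraries on the x axis and for the Nfib libraries on the y axis. Called genes, in purple, lie in the lower left and upper right quadrants, which the test nearly requires. Across all genes shown, r was 0.922.

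Cultures of different line names were set beside this pair in a fit of all 8 libraries, in which pairs share libraries. Lmyc3 old and Lmyc3 new differed at least 2-fold at 4364 of 14385 genes (30.3%), the highest count of the 6 pairs. Lmyc3 old differed from Lmyc1 at 3442 genes (23.9%) and from Lmyc5 at 3344 (23.2%). Lmyc3 new differed from Lmyc1 at 2602 genes (18.1%), the lowest count, and from Lmyc5 at 3429 (23.8%), and Lmyc1 differed from Lmyc5 at 3354 (23.3%). DESeq2, limma voom, total-count scaling, no expression filter and a count of genes 2-fold apart in both arms with no test gave the same highest and lowest pair. The spread of the log2 ratio over genes did not rank the pairs in this way in the empty vector arm, where its SD was 1.78 between the Lmyc3 cultures and 1.80 between Lmyc3 new and Lmyc5. Between the arms of a culture, 1538 genes were 2-fold apart in Lmyc3 old and 943 in Lmyc3 new, counted with no test.

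**Figure D2:**
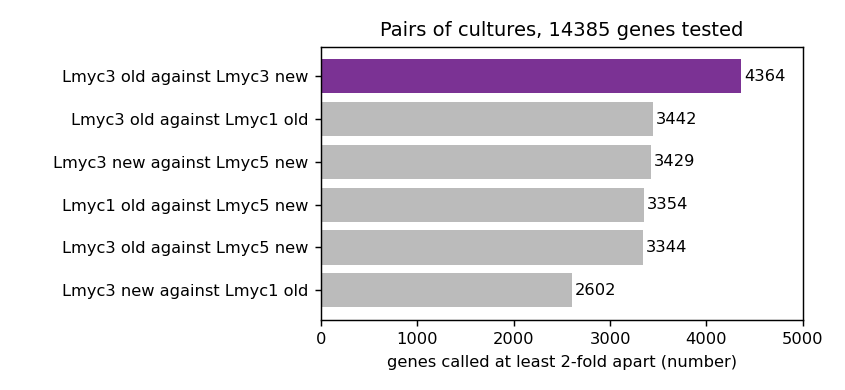
Bars give the number of genes called at least 2-fold apart for each pair of cultures, in 1 fit of 8 libraries, on an axis that starts at 0. The pair of Lmyc3 cultures (purple) has 4364 such genes and the other pairs (grey) have 2602 to 3442.

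Of the lineage factors, Insm1 was lower in the old culture and Nkx2-1 did not pass the test. Insm1, a zinc finger factor of endocrine and neuroendocrine cells, was at 121 and 92.7 CPM (old) against 278 and 356 CPM (new) (log2 difference -1.56 ± 0.21 (SE), adjusted p = 0.00633), and both old libraries lay below both new ones. Nkx2-1, the lung lineage factor, was at 205 and 169.7 CPM (old) against 202 and 157 CPM (new), with no detectable difference (0.08 ± 0.10 (SE), adjusted p = 0.544). Neurod1, Yap1 and Pou2f3, factors used as SCLC subtype markers, were low. Neurod1 was at 2.22 and 2.15 CPM (old) against 5.404 and 4.04 CPM (new), just short of the threshold (adjusted p = 0.0501), and passed it in limma voom (adjusted p = 0.0363) and 4 other alternatives. Yap1 was at 0.663 and 0.779 CPM (old) against 1.999 and 2.32 CPM (new) and was called higher in the new culture (-1.57 ± 0.39 (SE), adjusted p = 0.0306), but DESeq2 did not call it (adjusted p = 0.231), nor did the fit without any 1 library. The tuft cell factor Pou2f3 had at most 0.183 CPM and was not tested.

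**Figure D3:**
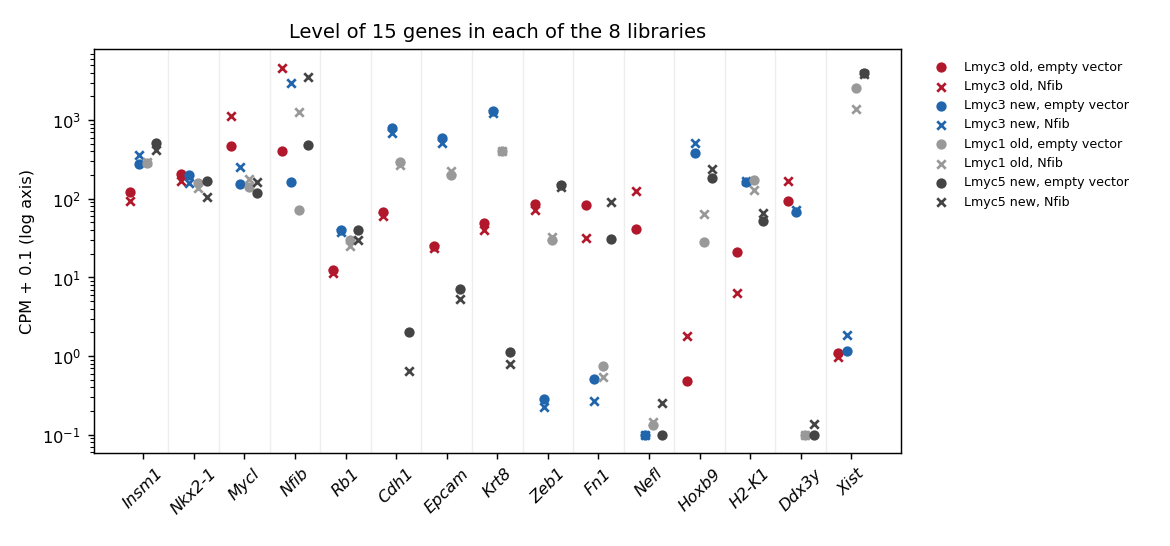
Points give the level of 15 genes in the 8 libraries as CPM plus 0.1 on a log axis, by culture (color) and arm (circle for empty vector, cross for Nfib). Insm1, Cdh1, Epcam, Krt8, Hoxb9 and H2-K1 are lower in Lmyc3 old than in Lmyc3 new, and Mycl, Zeb1, Fn1 and Nefl are higher.

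Of 31 neuroendocrine transcription factors tested, 11 were higher in the old culture and 13 in the new one, with a median log2 difference of -0.14. That is 77.4% called, against 49.4% of all genes. The factors higher in the new culture beside Insm1 included Pou3f4, a POU factor of the developing brain and ear (-6.28), Gfi1, a repressor used by pulmonary neuroendocrine cells (-3.97), St18 (-2.88), Foxa2, an endoderm pioneer factor (-2.27), and Hes6 (-1.57). Foxa2 was at 48.05 and 38.8 CPM (old) against 205 and 213 CPM (new). Among those higher in the old culture, Sox11, a factor of neuronal development, was at 346 and 290.2 CPM (old) against 7.55 and 27.1 CPM (new) (4.43 ± 0.58 (SE), adjusted p = 0.00609), and Myt1l, which represses non-neuronal genes, at 94.1 and 83.04 CPM (old) against 28.1 and 17.4 CPM (new) (2.001). Onecut1 was at 6.67 and 5.45 CPM (old) against 0.03702 and 0 CPM (new). With 1 count of Onecut1 in the new culture, the ratio was 304-fold (counting interval 54.1 to 12066). Foxa1, the close relative of Foxa2, was higher in the old culture at 336 and 357 CPM (old) against 193 and 187 CPM (new) (0.87 ± 0.10 (SE), adjusted p = 0.00447), opposite to Foxa2. The neuroendocrine factors therefore differed in both directions, by up to several log2 units a gene.

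The secretory genes were also mixed. Of 31 tested (71% called, against 49.4% of all genes), 9 were higher in the old culture and 13 in the new one. Their median was -0.03, and with the arm left out of the fit only 7 were called higher in the new culture. Ddc, which makes dopamine and serotonin from their precursors, was at 1468 and 2002 CPM (old) against 568 and 387 CPM (new) (1.88 ± 0.28 (SE), adjusted p = 0.00807). Cpe, a carboxypeptidase of prohormone maturation, was at 311 and 328 CPM (old) against 94.8 and 49.7 CPM (new) (2.22). Pcsk2, a prohormone convertase, was at 305 and 269 CPM (old) against 105 and 43.4 CPM (new) (2.08), while the other convertase, Pcsk1, ran the opposite way at 59.4 and 31.3 CPM (old) against 406 and 338 CPM (new) (-3.09 ± 0.20 (SE), adjusted p = 0.00131). Slc18a1, the vesicular monoamine transporter of endocrine cells, was at 3.41 and 1.56 CPM (old) against 128 and 45.2 CPM (new) (-5.06 ± 0.18 (SE), adjusted p = 0.000623). Th, the rate-limiting enzyme of catecholamine synthesis, had no counts in the old culture and 8.88 and 0.731 CPM in the new one, at least 36.6-fold higher with 3 counts a library as the floor, a call that was not made by DESeq2 (adjusted p = 0.116) or with the arm left out (adjusted p = 0.0517). Gad1, which makes GABA, was at 1.56 and 2.795 CPM (old) against 53.9 and 47.9 CPM (new) (-4.56). Calca, which encodes calcitonin and CGRP, was at 478 and 142 CPM (old) against 1223 and 424 CPM (new) (-1.46 ± 0.12 (SE), adjusted p = 0.00217), and the call was lost in the fit of all 8 libraries (adjusted p = 0.0554) and with the arm left out (adjusted p = 0.197). It was also lost without the new empty vector library (-0.91, adjusted p = 0.326), the old Nfib library (-0.95, adjusted p = 0.217) or the new Nfib library (-1.81, adjusted p = 0.0690). Chga, the granin used as a diagnostic marker, was at 1696 and 863 CPM (old) against 813 and 904 CPM (new) and did not pass (adjusted p = 0.2202), but passed without the old Nfib library (1.16, adjusted p = 0.0194).

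Synaptic release genes differed in both directions, with 5 of 29 tested higher in the old culture, 10 higher in the new one and a median of -0.13. The share called, 51.7%, was close to the 49.4% of all genes. Without the old Nfib library, 9 were called higher in the old culture. The complexins, which clamp vesicle fusion, differed in opposite directions: Cplx1 was at 199.6 and 118 CPM (old) against 2.44 and 7.78 CPM (new) (5.05 ± 0.66 (SE), adjusted p = 0.00611) and Cplx2 at 612 and 356 CPM (old) against 1257 and 1076 CPM (new) (-1.31 ± 0.18 (SE), adjusted p = 0.00653). Syt1, the calcium sensor of fast release, was at 104 and 57.3 CPM (old) against 455 and 414 CPM (new) (-2.48). Rab3b, a vesicle GTPase, was at 8.47 and 4.03 CPM (old) against 96.8 and 61.1 CPM (new) (-3.699), while its relative Rab3a was higher in the old culture (1.25). Within both families, members thus differed in opposite directions.

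Neuronal structure and RNA-binding genes were higher in the old culture. Of 30 tested, 18 were higher there and 2, the splicing regulators Srrm4 and Celf3, in the new one. Their median was 1.10, against 0.01 over all genes, and 66.7% were called, against 49.4% of all genes. Nefl (chr14:68083863-68089095), the light neurofilament, was at 40.8 and 126 CPM in the old culture with no counts in the new one, at least 703-fold higher. It was also at or below 0.156 CPM in Lmyc1 and Lmyc5, so among the 4 cultures it was abundant in Lmyc3 old. Its partner Nefm was at 26.7 and 54.7 CPM (old) against 0.07403 and 0 CPM (new), a ratio of 1029-fold (counting interval 285 to 8507). Stmn4, which regulates microtubule turnover, was at 54.2 and 58.5 CPM (old) against 0.111 and 0.129 CPM (new) (8.82 ± 0.24 (SE), adjusted p = 0.000581). Rbfox1, a neuronal splicing factor, was at 56.9 and 90.3 CPM (old) against 0.185 and 0.602 CPM (new) (7.597). Dcx, a microtubule protein of migrating neurons, was at 33.8 and 15.9 CPM (old) against 0.333 and 0.258 CPM (new) (6.34), against 34.9 and 29.6 CPM in Lmyc1 and 734 and 649 CPM in Lmyc5. Abundant members differed less: Map1b was at 1028 and 975 CPM (old) against 419 and 378 CPM (new) (1.34) and the RNA-binding gene Elavl4 at 339 and 259.5 CPM (old) against 98.1 and 98.9 CPM (new) (1.596). In the fit of all 8 libraries, in which 37.5% of genes were called between Lmyc3 new and Lmyc1 and 45.4% between Lmyc3 new and Lmyc5, the new culture was lower than Lmyc1 at 19 of these 30 genes and lower than Lmyc5 at 22. The old culture was higher at 9 and lower at 6 of them than Lmyc1 (47.5% of all genes called), and higher at 11 and lower at 10 than Lmyc5 (49.0% called). For these genes the new culture was the lower one in most calls against each of the other cultures.

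Channels and transmitter receptors went both ways. Of 40 tested (67.5% called, against 49.4% of all genes), 16 were higher in the old culture and 11 in the new one. Over all genes, 24.1% were higher in the old culture and 25.3% in the new one. The list had a median of 0.44. The kainate receptor gene Grik2 was at 6.06 and 6.87 CPM in the old culture with no counts in the new culture, at least 54.2-fold higher, and Grik3, of the same family, was at 131 and 63.2 CPM (old) against 8.55 and 2.06 CPM (new) (4.38). Calcium channel pore genes differed in both directions. Cacna1d, an L-type channel, was at 37.1 and 46.5 CPM (old) against 0.03702 and 0.172 CPM (new) (8.64 ± 0.38 (SE), adjusted p = 0.000723). Lmyc1 had 66.6 and 80.9 CPM of Cacna1d and Lmyc5 42.8 and 71.9 CPM, so the new culture was the lowest. Cacna1g, a T-type channel, was at 28.4 and 7.47 CPM (old) against 0.185 and 0.172 CPM (new) (6.499). Cacna1a, the P/Q-type channel of nerve endings, was at 32.1 and 17.002 CPM (old) against 214 and 147 CPM (new) (-2.91 ± 0.14 (SE), adjusted p = 0.000866). Cacna1h, another T-type channel, was at 15.1 and 14.02 CPM (old) against 94.9 and 104 CPM (new) (-2.76). The old culture thus had more Cacna1d and Cacna1g RNA and the new one more Cacna1a and Cacna1h RNA. Scn9a, a sodium channel, was at 10.7 and 4.08 CPM (old) against 166 and 63.5 CPM (new) (-3.95).

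Epithelial junction and keratin genes formed the most one-sided list. Of 41 tested, 39 were higher in the new culture, none in the old one, and Cldn12 and Tjp1 did not pass. The share called was 95.1%, against 49.4% of all genes. The median log2 difference was -4.09, with quartiles of -4.53 and -3.36. The list summed to 911.1 and 970.7 CPM in the old culture and to 9072 and 8486 CPM in the new one. In bulk RNA, fewer cells of a kind and less RNA per cell cannot be told apart. Cdh1 (chr8:106603351-106670246), which encodes E-cadherin, was at 67.6 and 59.99 CPM (old) against 786 and 682 CPM (new) (-3.52 ± 0.11 (SE), adjusted p = 0.000584). Epcam, an adhesion protein of simple epithelia, was at 24.7 and 23.6 CPM (old) against 590.0 and 513 CPM (new) (-4.503 ± 0.12 (SE), adjusted p = 0.000581). Krt8, a keratin of simple epithelia, was at 49.6 and 39.5 CPM (old) against 1290.0 and 1232 CPM (new) (-4.83 ± 0.14 (SE), adjusted p = 0.000581). Its partner Krt18 was at 24.001 and 13.1 CPM (old) against 305 and 254 CPM (new) (-3.96). Both old libraries lay far below both new ones for each of these 4 genes, yet the old culture still had at least 23.6 CPM of Cdh1, Epcam and Krt8. Krt19 had 0.142 and 0.0917 CPM there against 33.6 and 51.4 CPM (-8.43 ± 0.33 (SE), adjusted p = 0.000623). Desmosomes followed, with desmoplakin (Dsp) at 92.4 and 116 CPM (old) against 1493 and 1386 CPM (new) (-3.79 ± 0.17 (SE), adjusted p = 0.000723).

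Epithelial regulators differed in the same way. Grhl2, a factor that keeps epithelial junction genes on, was at 3.17 and 5.59 CPM (old) against 86.1 and 81.1 CPM (new) (-4.28 ± 0.27 (SE), adjusted p = 0.001303). Ehf, an ETS factor of epithelia, was at 1.14 and 3.35 CPM (old) against 248 and 200.4 CPM (new) (-6.67). Esrp1, the epithelial splicing regulator, was at 18.7 and 25.2 CPM (old) against 376 and 369 CPM (new) (-4.09 ± 0.16 (SE), adjusted p = 0.000623), and Ovol1, a repressor of mesenchymal genes, was at 0.994 and 1.604 CPM (old) against 33.02 and 28.3 CPM (new) (-4.56). The claudins Cldn3 and Cldn6, which seal tight junctions, differed by -5.32 and -6.28. Lmyc1 was nearer to the new culture, with Cdh1 at 289.6 and 268 CPM and Krt8 at 399 and 406 CPM. Lmyc5 was below the old culture, with 1.94 and 0.546 CPM of Cdh1 and 1.04 and 0.701 CPM of Krt8. In the 8-library fit, 47.5% of all genes were called between Lmyc3 old and Lmyc1 and 49.0% between Lmyc3 old and Lmyc5. For Lmyc3 new these shares were 37.5% and 45.4%. On this list Lmyc3 old was lower than Lmyc1 at 33 of 43 tested genes and higher at 2. Against Lmyc5 it was higher at 20 and lower at 12. Lmyc3 new was higher than Lmyc1 at 31 and than Lmyc5 at 38. By these counts the order of the cultures was new, Lmyc1, old and Lmyc5, and its last step was the least one-sided.

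The promoters of 4 of these genes are shown because the motif that Zeb1 is known to bind, the E-box CACCTG, can be read in them. The 250 bases before the start of Epcam lie at chr17:87635729-87635978 (plus strand), those of Krt8 at chr15:102004343-102004592 (minus strand), those of Rab25, a trafficking GTPase of epithelia, at chr3:88548280-88548529 (minus strand), and those of Spint2, an inhibitor of surface proteases, at chr7:29281978-29282227 (minus strand). They are from RefSeq, build GRCm38.p6, written 5′ to 3′ on the gene's strand, and capitals mark CACCTG or its reverse complement CAGGTG.
Epcam: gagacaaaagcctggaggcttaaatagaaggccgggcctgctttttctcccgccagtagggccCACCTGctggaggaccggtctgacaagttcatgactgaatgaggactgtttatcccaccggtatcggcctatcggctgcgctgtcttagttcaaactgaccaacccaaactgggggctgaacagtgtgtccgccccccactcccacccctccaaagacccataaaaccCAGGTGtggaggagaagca
Krt8: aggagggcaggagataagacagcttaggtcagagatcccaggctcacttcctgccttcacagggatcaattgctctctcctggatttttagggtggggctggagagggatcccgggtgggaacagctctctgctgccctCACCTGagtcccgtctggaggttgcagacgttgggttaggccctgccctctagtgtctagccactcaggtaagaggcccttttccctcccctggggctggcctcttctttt
Rab25: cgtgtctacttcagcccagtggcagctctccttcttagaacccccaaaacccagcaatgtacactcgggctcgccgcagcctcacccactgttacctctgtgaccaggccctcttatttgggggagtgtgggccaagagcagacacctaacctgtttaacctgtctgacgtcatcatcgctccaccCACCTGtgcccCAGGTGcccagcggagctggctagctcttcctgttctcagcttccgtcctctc
Spint2: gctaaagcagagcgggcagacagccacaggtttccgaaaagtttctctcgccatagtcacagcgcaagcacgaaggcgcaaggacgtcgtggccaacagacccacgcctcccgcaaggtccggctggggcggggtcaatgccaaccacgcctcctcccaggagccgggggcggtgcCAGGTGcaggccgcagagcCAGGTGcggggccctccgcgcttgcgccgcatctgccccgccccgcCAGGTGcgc
Epcam and Rab25 have 2 matches each in this window, Krt8 has 1 and Spint2 has 3. Rab25 was at 3.79 and 3.25 CPM (old) against 79.3 and 66.2 CPM (new) (-4.36) and Spint2 at 25.9 and 15.1 CPM (old) against 192 and 181 CPM (new) (-3.23). The motif was chosen after the values were seen, and the 4 promoters were picked for holding it. Cldn3 and Dsp, described above, have no match in their windows, and no promoter of Cdh1, Esrp1 or Grhl2 was available. A gene with several promoters counts once for each below, and such windows can overlap. Over the epithelial list, 25 genes had 32 promoters in the table, of which 16 (50%) hold it, against 17.2% of all 32851 promoters and 16.2% of those of genes tested. None of 18 promoters of 13 mesenchymal genes holds it, and 8 of 40 (20%) of the neuronal structure and RNA-binding genes do. A match describes the sequence only, since no binding was measured.

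Zeb1, on chromosome 18, was at 84.7 and 72.8 CPM (old) against 0.185 and 0.129 CPM (new) (8.92 ± 0.22 (SE), adjusted p = 0.000581), the inverse of the epithelial genes between these cultures. Its level was 30.04 and 33.02 CPM in Lmyc1 and 151 and 143 CPM in Lmyc5. Zeb2 was at 75.2 and 109 CPM (old) against 36.8 and 49.8 CPM (new) (1.09 ± 0.11 (SE), adjusted p = 0.00375). Twist1, a bHLH inducer of the mesenchymal state, was at 4.21 and 14.1 CPM in the old culture with no counts in the new one, at least 77.3-fold higher. Of 18 mesenchymal state genes tested, 10 were higher in the old culture and 6 in the new one. That is 88.9% called, against 49.4% of all genes. Their median was 1.79, or 1.09 over the 21 tested in the 8-library fit. Vim, the mesenchymal intermediate filament, was at 1.704 and 14.1 CPM (old) against 0.222 and 0.129 CPM (new) (4.88 ± 0.97 (SE), adjusted p = 0.0174), so its level in the old empty vector library was low. Cald1, an actin-binding protein, was at 114 and 151 CPM (old) against 20.95 and 26.1 CPM (new) (2.49), although Lmyc1 had 208 and 145 CPM. Tgfb2, a TGF-beta ligand, was higher in the old culture (5.33), whereas the ligand Tgfb1 was higher in the new one at 0.426 and 0.229 CPM (old) against 6.03 and 6.37 CPM (new) (-4.23), as were Anxa1, an annexin (-7.72), and Mmp2, a matrix protease (-4.09).

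Matrix genes summed to 781 and 1008 CPM in Lmyc1 and to 1042 and 1479 CPM in Lmyc5. Within each arm the new culture had the lowest sum, 644.2 and 531.5 CPM, and the old culture the highest, 1308 and 2984 CPM. Of 31 tested, 17 were higher there and 5 in the new culture (3 without the new Nfib library), with a median of 3.49, or 2.60 with the gene at 0 counts in 1 culture set to its bound. Of the 31, 71% were called, against 49.4% of all genes. In the empty vector libraries alone the median was 2.21, and in the 8-library fit 2.32. That fit had the new culture lower than Lmyc1 at 13 of 38 genes and higher at 2 (37.5% of all genes called). Against Lmyc5 the new culture was lower at 17 and higher at 6 (45.4%). The old culture was higher than Lmyc1 at 15 and lower at 10 (47.5%). Against Lmyc5 the old culture was higher at 16 and lower at 7 (49.0%). Col4a1, a basement membrane collagen, was at 96.5 and 234 CPM (old) against 0.444 and 0.344 CPM (new) (8.58 ± 0.37 (SE), adjusted p = 0.000708). Its neighbour and partner Col4a2 was at 71.01 and 128 CPM (old) against 1.89 and 1.38 CPM (new) (5.85). Both lie on chromosome 8, where the median gene was lower in the old culture, and the cause of their difference was not tested. Fn1, fibronectin, was at 84.5 and 31.7 CPM (old) against 0.407 and 0.172 CPM (new) (7.62 ± 0.22 (SE), adjusted p = 0.000581). Lmyc1 had 0.644 and 0.436 CPM of Fn1 and Lmyc5 30.5 and 92.3 CPM. Neural matrix genes were among those higher in the old culture. Ncan, a proteoglycan of the brain, was at 110.0 and 125 CPM (old) against 7.77 and 11.2 CPM (new) (3.65). Reln, a guidance glycoprotein of the cortex, was at 12.6 and 51.5 CPM (old) against 0.03702 and 0 CPM (new), a ratio of 1626-fold (counting interval 291 to 64261). Thbs1, thrombospondin, was the main exception at 4.59 and 0.962 CPM (old) against 163 and 50.6 CPM (new) (-5.36 ± 0.20 (SE), adjusted p = 0.000623). Several of these genes also differed between the arms of the old culture, such as Hapln1, a hyaluronan link protein, at 17.8 and 85.5 CPM.

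Cadherin genes differed in both directions: of 24 tested, 11 were higher in the old culture (7 without the new Nfib library) and 10 in the new one. Of these 24, 87.5% were called, against 49.4% of all genes. Cdh2, N-cadherin, was at 278 and 209 CPM (old) against 123 and 115 CPM (new) (1.02 ± 0.12 (SE), adjusted p = 0.00495), opposite to Cdh1. The protocadherin partners Dchs1 and Fat4, which bind each other across cells, were at 48.8 and 21.8 CPM (old) against 0 and 0.04301 CPM (new) and at 36.2 and 35.8 CPM (old) against 0.03702 and 0.08602 CPM (new). With 1 and 3 counts in the new culture, their ratios were 1764-fold (counting interval 316 to 69716) and 603-fold (counting interval 206 to 2928). Dchs1 was at 0.136 and 0.131 CPM in Lmyc1 and 25.5 and 23.1 CPM in Lmyc5. Fat4 was at 5.46 and 5.18 CPM in Lmyc1 and 15.9 and 49.5 CPM in Lmyc5. Pcdh10 was at 10.6 and 30.9 CPM (old) against 0 and 0.215 CPM (new) (7.67), with 5.09 and 25.8 CPM in Lmyc1 and 199 and 145 CPM in Lmyc5. Higher in the new culture were Cdh13, an anchored cadherin, at 13.4 and 9.26 CPM (old) against 129 and 73.3 CPM (new) (-3.12), and Cdh22, at 15.4 and 8.25 CPM (old) against 124 and 95.7 CPM (new) (-3.26).

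Immunoglobulin adhesion genes were split, with 11 of 35 tested higher in the old culture and 14 in the new one. Their median was -0.70, or -0.34 in the Nfib libraries alone, and 71.4% were called, against 49.4% of all genes. Chl1, a close homolog of L1, was at 3.03 and 15.2 CPM (old) against 341 and 472 CPM (new) (-5.74 ± 0.50 (SE), adjusted p = 0.002499), while Lmyc1 had 407 and 562 CPM and Lmyc5 3.79 and 7.48 CPM. L1cam, which guides growing axons, was at 16.99 and 66.9 CPM (old) against 178 and 176 CPM (new) (-2.36). Ncam1, the neural adhesion molecule used to diagnose SCLC, was at 242 and 206 CPM (old) against 101 and 99.2 CPM (new) (1.16 ± 0.11 (SE), adjusted p = 0.00284). Cntn1, a contactin, was at 48.9 and 50.3 CPM (old) against 4.997 and 1.68 CPM (new) (4.02). Of 13 integrins tested, 4 were higher in each culture (61.5% called). The largest difference was at Itgav, the alpha chain of vitronectin receptors, at 25.3 and 16.2 CPM (old) against 0.259 and 0.387 CPM (new) (5.98 ± 0.40 (SE), adjusted p = 0.00148). Axon guidance genes divided as 17 and 13 of 41 (73.2% called). Their median was 0.00, with 0.48 in the empty vector arm and -0.20 in the Nfib arm. The repellent Sema3a was at 57.5 and 44.8 CPM (old) against 0.222 and 0.559 CPM (new) (7.05 ± 0.42 (SE), adjusted p = 0.00117). The netrin receptor Unc5b was at 6.25 and 3.48 CPM (old) against 96.3 and 56.2 CPM (new) (-3.97 ± 0.15 (SE), adjusted p = 0.000623).

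**Figure D4:**
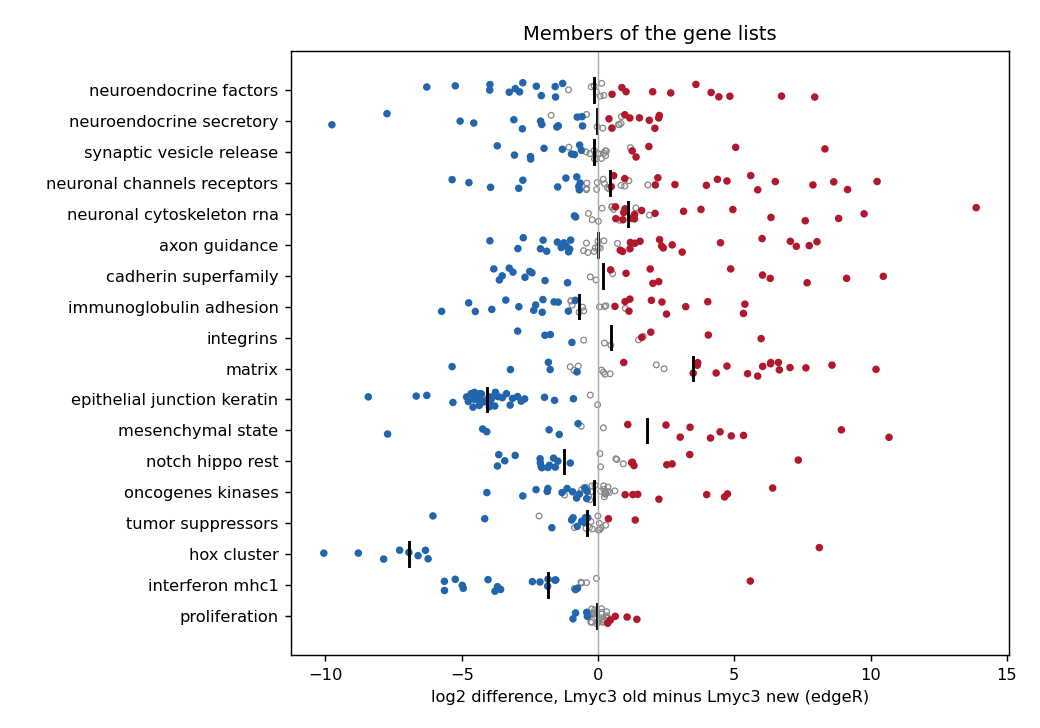
Each point is a tested member of a gene list, placed by its log2 difference, old minus new, from edgeR (red and blue for called genes higher in the old and the new culture, open grey for the rest), and black bars give the list medians. The epithelial, Hox and interferon and MHC lists lie mostly to the left (medians of -4.09, -6.94 and -1.85), and the matrix list has the rightmost median at 3.49.

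The genes of the HoxB cluster were low in the old culture. Hox genes encode position along the body axis, and those of the B cluster lie side by side on chromosome 11. Of 18 Hox genes found in the counts, 9 were tested. The 8 HoxB genes (Hoxb2 to Hoxb9) were all higher in the new culture. Hoxb2 was at 0.0473 and 0.0458 CPM (old) against 59.4 and 52.1 CPM (new), a ratio of 1203-fold (counting interval 333 to 9938). Hoxb5 was at 2.79 and 1.88 CPM (old) against 182 and 169 CPM (new) (-6.24 ± 0.18 (SE), adjusted p = 0.000581), Hoxb8 at 0.899 and 0.642 CPM (old) against 124 and 118 CPM (new) (-7.28) and Hoxb9 at 0.379 and 1.696 CPM (old) against 385 and 510.3 CPM (new) (-8.79 ± 0.38 (SE), adjusted p = 0.000715). All 8 genes stayed at or below 2.79 CPM in the old libraries. In the 8-library fit all 8 were also lower in Lmyc3 old than in Lmyc1, where Hoxb2 was at 57.7 and 52.5 CPM, and than in Lmyc5, where it was at 63.3 and 54.9 CPM. The median gene of chromosome 11 was higher in the old culture, but a chromosome median does not describe a single cluster. The cause of the low HoxB RNA was not tested. Hoxd8, the only tested Hox gene outside the cluster, was at 1.85 and 1.05 CPM in the old culture with no counts in the new one, at least 12.1-fold higher.

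Antigen presentation genes were lower in the old culture. MHC class I molecules display peptides that the immunoproteasome cuts and the Tap transporter carries into the endoplasmic reticulum. Of 23 interferon and MHC class I genes tested, 17 were higher in the new culture and 1 in the old one (median -1.85). The share called was 78.3%, against 49.4% of all genes. H2-K1 was at 20.8 and 6.28 CPM (old) against 161 and 166 CPM (new) (-3.78 ± 0.47 (SE), adjusted p = 0.00554) and H2-D1 at 12.7 and 8.84 CPM (old) against 197 and 156 CPM (new) (-4.04 ± 0.13 (SE), adjusted p = 0.0006), closely similar class I genes between which counting could split reads. Their light chain B2m was at 7.95 and 7.88 CPM (old) against 29.9 and 27.1 CPM (new) (-1.84). Tap1 was at 0.568 and 0.275 CPM (old) against 13.1 and 13.4 CPM (new) (-4.98), Tap2 at 0.615 and 0.5499 CPM (old) against 28.7 and 29.9 CPM (new) (-5.63), and the immunoproteasome subunits Psmb8 and Psmb9 differed by -4.94 and -5.24. The exception was Usp18, an inhibitor of interferon receptor signaling, at 94.8 and 46.3 CPM (old) against 2.52 and 0.645 CPM (new) (5.58 ± 0.28 (SE), adjusted p = 0.000867), above the 2.79 to 3.70 CPM of Lmyc1 and Lmyc5. The interferon response gene Ifit1 ran with the class I genes at 0.0947 and 0.0917 CPM (old) against 5.997 and 3.96 CPM (new) (-5.64).

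Notch signaling opposes the neuroendocrine state in the lung. A list of Notch pathway genes also holds Hippo effectors and Rest. Of its 26 genes tested, 80.8% were called, against 49.4% of all genes. In the new culture 14 were higher (9 in DESeq2) and in the old one 7 (median -1.25). The receptor Notch2 had the largest difference of the 7 at 23.5 and 54.7 CPM (old) against 0.07403 and 0.4301 CPM (new) (7.34 ± 0.34 (SE), adjusted p = 0.000788), above 0.407 and 0.566 CPM in Lmyc1 and 2.44 and 7.52 CPM in Lmyc5. Ligands differed in both directions, with Dll1 (-1.63), Jag2 (-1.02) and the inhibitory ligand Dll3 (-2.07) higher in the new culture and Jag1 (1.26) in the old one. Lfng, a glycosyltransferase that tunes Notch receptors, was at 7.95 and 13.7 CPM (old) against 135 and 130.1 CPM (new) (-3.64 ± 0.25 (SE), adjusted p = 0.00152), and the targets Nrarp and Hes1 differed by -3.69 and -1.48. Tead1, a partner of the Hippo effector Yap1, was at 536 and 421 CPM (old) against 206 and 200.4 CPM (new) (1.23).

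Mycl, the oncogene carried by the transgene, was at 463 and 1124 CPM (old) against 155 and 255 CPM (new) (1.86 ± 0.17 (SE), adjusted p = 0.00287), and Lmyc1 and Lmyc5 had 118 to 179 CPM. The difference was 1.57 in the empty vector arm and 2.14 in the Nfib arm. Reads of the endogenous gene and of the transgene cannot be told apart here. Mycl (chr4:122995652-123002485) and Nfib (chr4:82290173-82705750) both lie on chromosome 4. Of 95 tested genes within 5 Mb of Mycl, 47 were higher in the old culture and 10 in the new one (median 0.53). Within 5 Mb of Nfib these numbers were 11 and 5 of 21 (median 0.50). Over the 900 tested genes of chromosome 4 they were 353 and 159 (median 0.35), and over all genes 24.1% and 25.3%. Whether the windows differ from the rest of the chromosome was not tested. Nfib was called higher in the old culture (0.99 ± 0.20 (SE), adjusted p = 0.0179), most plainly in the empty vector libraries, but the call was lost when the arm was left out (adjusted p = 0.736) and without any 1 library. Nfia, a second member of the family on chromosome 4, was at 84.3 and 53.1 CPM (old) against 14.1 and 13.1 CPM (new) (2.31 ± 0.19 (SE), adjusted p = 0.00224), and Nfic and Nfix did not pass, except Nfix without the old Nfib library (-2.56, adjusted p = 0.00477). Myc was at 0.237 and 1.008 CPM (old) against 0.07403 and 0.903 CPM (new) and Mycn at 0.7101 and 0.367 CPM (old) against 0.07403 and 0.258 CPM (new).

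Among 42 oncogenes and kinases tested, 8 were higher in the old culture (5 without the new Nfib library, 13 in the 8-library fit) and 13 in the new one, a share of 50% against 49.4% of all genes. Receptor tyrosine kinases differed in both directions. Ret, the GDNF receptor of neuroendocrine tumors, was at 33.1 and 20.5 CPM (old) against 487 and 405 CPM (new) (-4.08 ± 0.15 (SE), adjusted p = 0.000623), and Kit, the stem cell factor receptor, at 35.7 and 17.2 CPM (old) against 132 and 111 CPM (new) (-2.28). Erbb3 was at 32.2 and 24.6 CPM (old) against 133 and 79.6 CPM (new) (-1.87). Its relative Erbb4 ran the opposite way at 3.27 and 10.7 CPM (old) against 0.3702 and 0.08602 CPM (new) (4.64), as did Pdgfra at 10.4 and 2.57 CPM (old) against 0.148 and 0.258 CPM (new) (4.75, not called without the new empty vector library, adjusted p = 0.0587) and Fgfr1 at 10.3 and 16.3 CPM (old) against 1.55 and 4.77 CPM (new) (2.23). Bcl2, which blocks apoptosis, was at 6.53 and 5.73 CPM (old) against 22.9 and 21.2 CPM (new) (-1.84). Of 24 tumor suppressors tested, 2 were higher in the old culture (1 without either new library or the old Nfib library) and 10 in the new one (median -0.41), again 50%. Rb1 was at 12.4 and 11.5 CPM (old) against 40.2 and 37.4 CPM (new) (-1.698 ± 0.15 (SE), adjusted p = 0.00258), and Lmyc1 and Lmyc5 had 25.3 to 39.5 CPM, so the old culture was the lowest. Cdkn1c, an imprinted cell cycle inhibitor, was at 0.284 and 0.137 CPM (old) against 12.6 and 16.4 CPM (new) (-6.06 ± 0.46 (SE), adjusted p = 0.001897), again with higher levels in Lmyc1 (42.3 and 44.2 CPM) and Lmyc5 (55.6 and 41.8 CPM). Smad4, the shared TGF-beta effector, was at 145 and 143 CPM (old) against 53.2 and 59.4 CPM (new) (1.36) and lies on chromosome 18.

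Oncofetal and imprinted genes differed in both directions. Of 21 tested (85.7% called, against 49.4% of all genes), 10 were higher in the old culture and 8 in the new one. Lin28b, an RNA-binding protein that blocks let-7 maturation, was at 31.8 and 33.1 CPM (old) against 0.07403 and 0.129 CPM (new) (8.28 ± 0.31 (SE), adjusted p = 0.000623), while its paralog Lin28a was at 2.84 and 3.94 CPM (old) against 56.1 and 61.6 CPM (new) (-4.12 ± 0.18 (SE), adjusted p = 0.00072). The paralogs thus ran in opposite directions, and Lin28a was at 149 and 139 CPM in Lmyc1 and 22.8 and 19.6 CPM in Lmyc5. The imprinted genes Nnat (2983 and 542 CPM (old) against 317 and 162 CPM (new), 2.496) and Plagl1 (22.7 and 35.9 CPM (old) against 0.07403 and 0.08602 CPM (new), 8.41) were higher in the old culture and Mest (1.66 and 1.37 CPM (old) against 58.5 and 141 CPM (new), -5.91) in the new one. Proliferation genes had the lowest share of calls among the lists with more than 20 genes tested: 9 of 33 tested (27.3%) were called, below the 49.4% of all genes, with a median of -0.05. They summed to 9876 and 9987 CPM in the old culture and 9560 and 10273 CPM in the new one. The count higher in the old culture, 5, ranged from 2 to 8 over the alternatives, and that in the new one, 4, reached 7 with total counts.

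Of the genes with the largest differences, all named here had 0 to 3 counts in 1 of the Lmyc3 cultures, while Hoxb9 and Krt19, described above, had more. In the old culture these included Slc35f1, a solute carrier-like gene of the brain, at 355 and 114 CPM (old) against 0.03702 and 0.04301 CPM (new) (ratio 5847-fold (counting interval 1618 to 48288)), Sln, the sarcolipin gene of muscle, at 289.5 and 142 CPM (old) against 0.07403 and 0.04301 CPM (new) (ratio 3594-fold (counting interval 1229 to 17429.6)), and Cnr1, the cannabinoid receptor, at 36.7 and 21.3 CPM against no counts (at least 242-fold). Lef1, a Wnt pathway factor, was at 38.96 and 9.62 CPM against no counts (at least 202-fold), and Zfp521, a zinc finger factor of neural precursors, at 29.4 and 38.4 CPM (at least 284-fold). Lmyc1 and Lmyc5 had at most 0.974 CPM of Lef1 and 0.195 CPM of Zfp521. In the new culture Dach2, a cofactor of eye and muscle development, was at 47.8 and 48.1 CPM against no counts (at least 343-fold), and it was present in Lmyc1 (29.3 and 29.1 CPM) and Lmyc5 (22.6 and 14.2 CPM). Hgf, the ligand of Met, was at 0.0473 and 0 CPM (old) against 78.7 and 42.7 CPM (new) (ratio 2663-fold (counting interval 478 to 105217)). Ptf1a, a bHLH factor of pancreas and inhibitory neurons, was at 0 and 0.0458 CPM (old) against 26.7 and 56.9 CPM (new) (ratio 1746-fold (counting interval 313 to 69009)). Among abundant genes, Actg1, cytoplasmic actin, was at 2316 and 5075 CPM (old) against 721 and 660.3 CPM (new) (2.32 ± 0.35 (SE), adjusted p = 0.00844), and Pkm, pyruvate kinase, at 2131 and 1833 CPM (old) against 899 and 893 CPM (new) (1.15). Ucp2, a mitochondrial carrier, was at 451 and 133 CPM (old) against 1178 and 857 CPM (new) (-2.03 ± 0.35 (SE), adjusted p = 0.0118) and was not called with the arm left out (adjusted p = 0.0707). S100a10 had no counts in the old culture and 11.96 and 13.6 CPM in the new one (at least 90.99-fold), with at most 0.429 CPM elsewhere.

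The median gene of several chromosomes differed between the cultures. The median log2 difference was 0.92 on chromosome 18 (79.9% of 349 genes tested higher in the old culture), -0.66 on chromosome 8 (23.1% of 749), 0.47 on chromosome 11 (72.1% of 1134) and 0.35 on chromosome 4 (65.4% of 900). It was -0.25 on chromosome 5 and between -0.16 and 0.13 on the others. The Lmyc3 libraries were also set against the mean of the Lmyc1 and Lmyc5 libraries of both arms. By that measure the median of chromosome 18 was -0.90 and -0.89 in the new libraries and 0.09 and 0.04 in the old ones. For chromosome 8 the medians were 0.50 and 0.56 in the new culture and -0.28 and -0.25 in the old one, and for chromosome 11 they were -0.04 and -0.03 in the new and 0.28 and 0.55 in the old. DNA was not analysed here, and the part of these shifts in the single genes was not tested. Outside these 4 chromosomes, 4869 of 10572 genes (46.1%) were called, 2160 higher in the old culture and 2709 in the new one. There the epithelial list had 29 of 31 genes higher in the new culture (median -4.19), the neuronal structure list had 13 of 22 higher in the old one (median 1.08), the matrix list 11 of 23 (median 2.14) and the interferon and MHC list 15 of 19 higher in the new one (median -2.41).

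**Figure D5:**
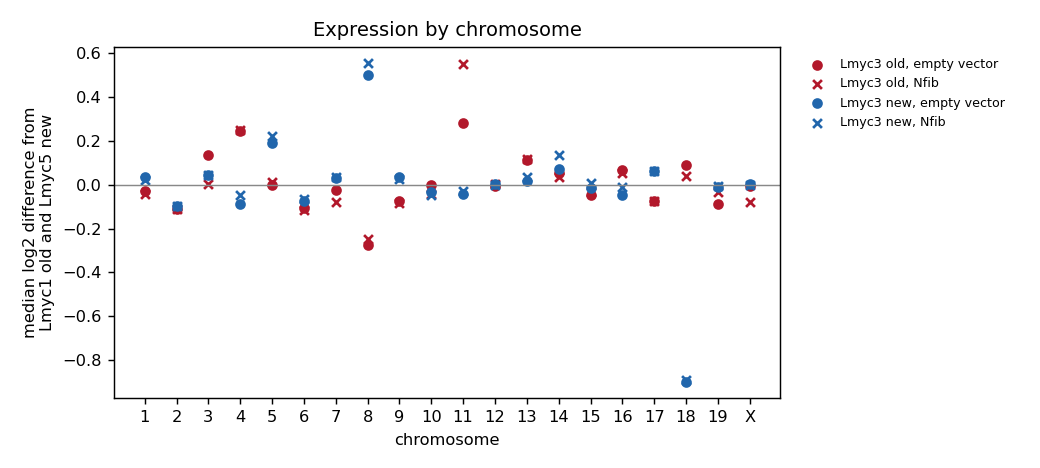
For each chromosome, points give the median log2 difference of its genes between 1 Lmyc3 library and the mean of the Lmyc1 and Lmyc5 libraries over both arms. Chromosome 18 lies at -0.90 and -0.89 in the new libraries, and chromosome 8 at 0.50 and 0.56 in the new libraries and at -0.28 and -0.25 in the old ones.

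The words old and new also separate Lmyc1 from Lmyc5, a comparison that shares no library with this one. There 6091 of 13768 genes (44.2%) were called. The Lmyc3 comparison called 49.4% of its genes. Of 13176 genes tested in both comparisons, 3380 were called in both, an overlap that was not tested against these shares. Of the 3380, 1443 (42.7%) had the same direction and 1937 the opposite one. The 1443 are 21.3% of the Lmyc3 calls and 23.7% of the others. Among calls of at least 2-fold, 487 of 1634 (29.8%) went the same way. Lmyc1 and Lmyc5 also differ in line name, which cannot be told apart from old and new there.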

How the data were processed

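RNA-seq counts of 8 libraries were used, 4 of them Lmyc3. The authors deposited whole-number read counts per Ensembl gene, not normalized. TruSeq libraries are named per the labels' protocols, and TopHat2 2.1, Bowtie 1.0.0, SAMtools 0.1.19, DESeq2 and the build GRCm38 per the submitters' processing notes. The sources used here name no counter, strand setting or annotation release, so overlapping and antisense genes cannot be told apart. One further allele in the labels and some genes are not reported here.

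The main test was edgeR 4.0.16 (R 4.3.3), original quasi-likelihood form, on the 4 Lmyc3 libraries with culture and arm as terms, TMM factors, edgeR's expression filter by culture (13704 of 22691 genes kept) and Benjamini-Hochberg adjustment at 0.05. It had 1 residual degree of freedom per gene and 3.41 prior ones. The SE is the log2 difference divided by the square root of F. Alternatives were DESeq2 1.42.0, limma 3.58.1 (voom), a bias-adjusted edgeR fit, a test against a 2-fold threshold, all 8 libraries, no arm term, other scalings, filters and thresholds, and each library left out of the 8-library fit, where the lone library is taken to vary like the others. In data simulated for this comparison with 13495 genes, edgeR called 65 of 100 genes changed 2-fold, 96 of 100 changed 4-fold and 6 unchanged ones. No other gene was changed there and no arm effect was simulated. These rates may therefore not carry over to the data, in which 49.4% of genes were called.

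Log2 ratios within an arm used a prior count of 2. A gene with no counts in a culture is given as at least a fold, with 3 counts in each library as the floor. With 1 to 3 counts the ratio has an exact 95% interval, which covers counting error only. The members, gene lists and tests were chosen with earlier results of these data known. Named genes were 22 set ones, the 12 largest differences each way among called genes of at least 5 CPM, the 6 most abundant called at least 2-fold each way and up to 4 called members a list with the largest differences. Other genes named were chosen after their values were seen.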

Additional observations from a re-analysis of the deposited data

Results flagged for a closer look

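For 6 of the 22 set genes the log2 ratio of old to new had opposite signs in the empty vector and Nfib arms, which is why they are listed. Each arm has 1 library a culture, so the difference was not tested, and none of these genes passed the test between cultures. The values are the ratio in the empty vector arm minus that in the Nfib arm. For Nfix it was -3.25, from a ratio of -2.81 and one of 0.44. For Grp, a neuropeptide gene below 1 CPM in these libraries, it was 1.99, and for Chga it was 1.13, from 1.06 and -0.07. The Y-linked genes Uty and Eif2s3y gave -1.04 and -0.82, and Nfic gave -0.19.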

How the results depend on the processing

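The count of 6767 genes called between the Lmyc3 cultures became 3308 at an adjusted p under 0.01 and 2442 in the test against a 2-fold threshold, since both ask for more. The genes higher in the old culture numbered 1591 and 1118 under these settings and 2160 without chromosomes 4, 8, 11 and 18, an alternative chosen after seeing the data in which fewer genes are tested. Those higher in the new culture numbered 1717 and 1324, and those at least 2-fold higher there 1451 at an adjusted p under 0.01. Over the other alternatives the count of genes called ran from 5586 (DESeq2) to 8461 (all 8 libraries), and leaving out 1 library gave 5767 to 7494. For Lmyc1 old against Lmyc5 new, leaving out 1 library of the 8-library fit gave 3629 to 4358 genes against 6091. All 8 libraries gave 6630 genes there. Each fit without 1 library has a single library for 1 of these cultures, and the cause of the lower counts was not tested.

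Single named genes kept direction and side of the threshold in 1793 values, lost the call in 51, gained it in 10 and changed sign in 12. List medians taken in 1 arm alone moved by more than the SD of the arms in 28 values and by less in 28, and list counts moved by over 1.5 times in 83 values and by less in 701. The sign changes came from leaving out 1 library, in genes that did not pass the main test. Over these 4 fits, Chga ran from -0.18 to 1.16, Eif2s3y from -0.085 to 0.74 (-0.050 without the new Nfib library), Grp from -0.34 to 2.35, Myc from -0.35 to 2.44 (-0.26 without the new empty vector library), Nfic from -0.20 to 0.11 (7.65e-05 without the new Nfib library), Nfix from -2.56 to 0.097, Nkx2-1 from -0.00099 to 0.13 and Uty from -0.14 to 0.91 (-0.11 without the old Nfib library). The cause was not tested. The arm is also the replicate block of the fit, and with no replicate block 6479 genes were called. Depth limits genes under about 0.138 CPM before scaling, and with 1 culture a side no statement reaches beyond these 2 cultures.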

Other observations

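Further genes with large differences belong to no list above. In the old culture, Eya4, a phosphatase and cofactor of sensory organ development, was at 98.1 and 70.02 CPM (old) against 0.03702 and 0 CPM (new) (ratio 4214-fold (counting interval 756 to 166478)). Sdc2, a heparan sulfate proteoglycan, was at 31.8 and 31.3 CPM, Cnksr2, a scaffold of neuronal synapses, at 25.4 and 26.1 CPM and Kcna4, a voltage-gated potassium channel, at 31.1 and 7.93 CPM, each with no counts in the new culture, and were at least 264-fold, 216-fold and 162-fold higher. Fam159b was at 2.89 and 31.7 CPM with no counts in the new culture, so it was mostly in the Nfib library. In the new culture, Tcfl5, a bHLH factor of male germ cells, was at 0 and 0.0458 CPM (old) against 21.8 and 17.8 CPM (new) (ratio 856-fold (counting interval 153 to 33846)).

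Further highly expressed genes were chosen for a call of at least 2-fold, so a difference larger than their chromosome's median followed from the choice. These medians were 0.92 on chromosome 18, 0.47 on chromosome 11, 0.35 on chromosome 4 and -0.10 on chromosome 9. The upper quartiles of chromosomes 18, 11 and 4 were 1.45, 0.97 and 0.87, and the lower quartile of chromosome 9 was -0.69. Atp5a1, an ATP synthase subunit on chromosome 18, was at 1596 and 1348 CPM (old) against 536 and 528 CPM (new) (1.47 ± 0.13 (SE), adjusted p = 0.00243 in edgeR). Kpnb1, a nuclear import receptor on chromosome 11, was at 1319 and 1546 CPM (old) against 688 and 713 CPM (new) (1.03). Ybx1, an RNA-binding protein on chromosome 4, was at 1505 and 1312 CPM (old) against 663 and 748 CPM (new) (1.003). Snap91, a clathrin adaptor of synapses on chromosome 9, was at 571 and 294 CPM (old) against 1145 and 1035 CPM (new) (-1.402 ± 0.23 (SE), adjusted p = 0.0102 in edgeR).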
